A study of Canis rufus and Canis latrans with 56 samples.

Results

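Nearly all DDX and DHX genes encode RNA helicases, which use ATP to unwind or remodel RNA and the proteins bound to it. Here they were examined in whole blood of 13 red wolves (Canis rufus, a wild canid of the southeastern United States) and 1 coyote (Canis latrans). A gene was taken when its symbol in the probe annotation begins with DDX or DHX and a digit, and each gene was read from its brightest probe over the 14 animals. This gave 50 genes (35 DDX and 15 DHX) on 53 probes, of 16121 genes with a symbol on the array. The rule goes by name and so also took DDX11, a DNA helicase.

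Blood was stored in RNAlater. Its RNA was amplified, tagged with biotin and run on 4 human Illumina bead arrays per animal, 56 arrays on 7 slides. By the design text 6 wolves were captive (2 females and 4 males) and 7 free-ranging (2 females and 5 males), and the coyote was a free-ranging female. The labels do not tie sex or confinement to single wolves and hold no ages, so no comparison by these was made. The 4 arrays repeat 1 RNA preparation, so each animal counts once.

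Most DDX proteins carry the DEAD box and most DHX proteins the related DEAH box, named after amino acids of the ATP-binding motif. DEAD-box members mostly separate short duplexes or displace proteins, in messenger RNA export, translation and ribosome assembly. Several DEAH-box members drive single steps of the spliceosome, the machine that removes introns. A few members of both kinds recognise viral nucleic acids inside cells.

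Each level is a log2 intensity set against its array's mean, so that a step of 1 doubles the intensity. The probes were made for human transcripts, and which canid transcript each bound was not measured, so levels of different genes are not ranked against each other. The brightest of 38 measured genes of liver and skeletal muscle, HPX, had a mean level of 0.396, which served as the background bound. Of all probes, 8.47% were brighter than that. The 95th percentile of an array, a measure of its signal range, ran from 0.332 to 1.24 over the arrays. Red cell genes marked the samples as blood, with 7 of 15 measured markers above the bound, and the white cell lists held fewer: 2 of 15 for T cells, 0 of 11 for B and plasma cells, 1 of 19 for neutrophils, 2 of 11 for monocytes, 2 of 12 for NK and cytotoxic cells. The platelet list held 1 of 9. With 4 arrays an animal, their number sets the precision.

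Of the 50 helicase genes, 8 had a mean level above the bound (16%) and 42 did not. Of all genes with a symbol, 9.91% lay above it. The 8 were DDX5, DDX31, DDX3X, DDX1, DDX41, DHX15, DHX16 and DHX8. The other 42 had mean levels between -0.36 and 0.31, where the level alone does not separate transcript from background signal. By role, 4 of 9 spliceosome helicases lay above the bound, 2 of 9 of translation and messenger RNA fate, 1 of 15 of ribosome assembly and 1 of the pair DDX5 and DDX17. None of the 5 grouped here by export did (DDX19A, DDX19B, DDX25, DDX39A and DDX39B). Nor did any of the 3 grouped by germ cells or testis (DDX4, DDX43 and DDX53), or the antiviral helicases DHX58 and DDX60. Each gene was given 1 role, though it may have others. The roles hold few genes each, and the split by role was not tested.

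**Figure D1:**
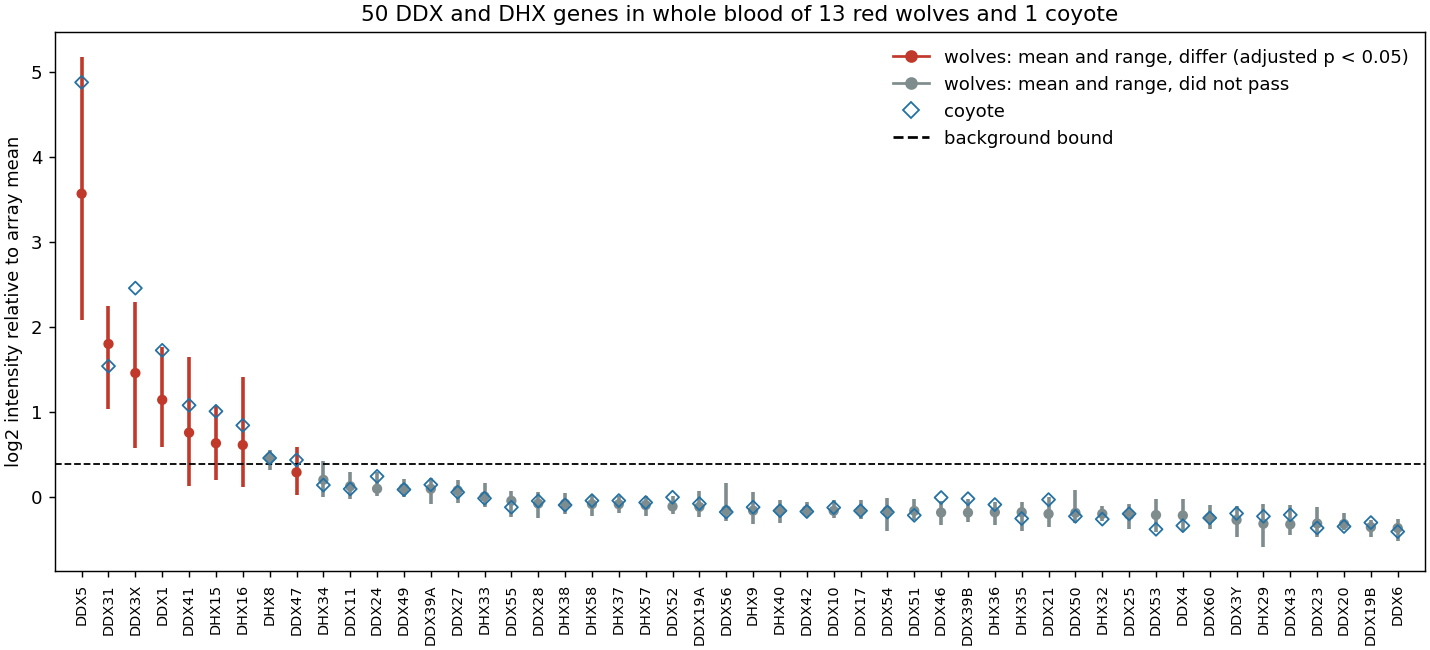
Level of each of the 50 helicase genes as log2 intensity minus the array mean. Points are means and bars the range over 13 wolves, red where the wolves differed and grey where they did not pass; open diamonds are the coyote, and the dashed line is the background bound of 0.396. The 8 genes at the left lie above the bound, and DDX5 has the widest range.

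The first question was which helicases differed among individual wolves by more than their repeated arrays. Of the 50 genes 8 did, 16% of the members, against 12.8% of all genes with a symbol, also read from their brightest probes. Of all 24354 probes 11.2% did (limma's moderated F test with slide as a covariate, adjusted p under 0.05 over all probes). Brightness mattered for this reading. Of the members above the bound 7 of 8 differed (87.5%), where 78.1% of all probes above the bound did. Of the members at or below it 1 of 42 differed (2.38%), where 5.02% of such probes did. The counts are thus near those of probes of like brightness. The share of variance lying between wolves had a median of 0.859 over the 8 bright members and 0.538 over all probes above the bound. The p-values measure only the spread between repeated arrays of the same RNA, with slide differences taken out. The shares of variance and the SDs between arrays given below leave slide out in the same way.

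DDX5, also called p68, a coregulator of transcription that also acts in splicing and microRNA processing, spread widest. Its level was lowest in wolf 11273 at 2.08, had a median of 3.34 and was highest in wolf 11270 at 5.18. The mean was 3.57 ± 0.96 (SD, n = 13 wolves), against an SD of 0.21 between arrays of an animal, and the adjusted p of limma's F test was 3.97e-28. From the lowest to the highest wolf this is an 8.54-fold range, and the SD ranked 17th among all 24354 probes.

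The order of the wolves for DDX5 had neighbours that could not be told apart. The standard error of an animal's level was 0.11. Wolves 10537, 11310 and 11105 stood at 4.00, 4.02 and 4.05, and wolves 11275 and 11274 at 3.09 and 3.10. At the top wolves 11206, 111080 and 11270 stood at 4.57, 4.89 and 5.18. At the bottom wolves 11136, 10632 and 10406 followed the lowest wolf at 2.49, 2.76 and 2.80. The closest relative of DDX5, DDX17, had a level of -0.15 ± 0.07 (SD, n = 13) on a probe for a single transcript form, below the bound in all wolves (adjusted p = 0.706 in limma's F test).

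Among helicases of translation, DDX3X, an X-linked gene whose protein helps ribosomes start on structured messenger RNAs, ranged 3.30-fold. Its probe, like that of DDX17, was made for a single transcript form. The level of DDX3X varied as follows. It was lowest in wolf 11273 at 0.57, had a median of 1.32, and stood at 2.30 in wolf 11206 and 2.29 in wolf 11310. Wolves 11270 and 111080 followed at 2.21 and 2.05, and wolf 11310 was the highest under each of the 4 other scalings tried, no slide term included. The SD over wolves was 0.61 and between arrays 0.21 (adjusted p = 7.88e-21, limma's F test). Its Y-linked partner DDX3Y had a level of -0.26 ± 0.12 and did not pass (adjusted p = 0.0718, limma's F test).

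DDX1, a helicase of the complex that ligates transfer RNA, ranged 2.25-fold, from 0.60 in wolf 11148 through a median of 0.95 to 1.77 in wolf 11206. Its SD was 0.41 over wolves and 0.16 between arrays (adjusted p = 8.41e-16, limma's F test). Wolves 11148, 10406 and 11273, at 0.60, 0.67 and 0.69, were the lowest. DHX9, DHX36, DHX29, DHX34, DDX6 and DDX20, which act on translation, decay or assembly of RNA-protein particles, did not pass and had mean levels between -0.36 and 0.20. The probe of DHX9 was made for a single transcript form.

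Of the 9 spliceosome helicases 3 differed among the wolves. They were among the 4 above the bound, where 78.1% of all probes differed. DDX41, which also takes part in sensing of foreign DNA, had its minimum of 0.14 in wolf 11273, a median of 0.55 and its maximum of 1.65 in wolf 11206 (SD 0.49 over wolves and 0.19 between arrays). Wolf 111080 had 1.29, and 4 wolves lay at or below the bound. Counted from the bound up, the range was 2.39-fold. The bound is a mean over animals, and HPX reached 0.63 in wolf 10537, so a range counted from it is not a lower limit. The adjusted p was 2.55e-18 in limma's F test.

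DHX16, which drives the spliceosome into its active form, ran from 0.12 in wolf 11273 through a median of 0.46 to 1.42 in wolf 11206 (SD 0.43 over wolves and 0.22 between arrays, adjusted p = 3.09e-14 in limma's F test). With 5 wolves at or below the bound, its range counted from the bound was 2.03-fold. DHX15, which takes spent spliceosomes apart, ran from 0.21 in wolf 10632 through a median of 0.66 to 1.08 in wolf 111080 (SD 0.30 against 0.12, adjusted p = 8.37e-13). Wolf 11273 was next lowest at 0.22 and wolf 11206 next highest at 1.05. The range counted from the bound was 1.60-fold, with 3 wolves at or below it. After quantile normalization its lowest and highest wolves were 11148 and 11136, at 0.25 and 1.01.

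DHX8, which releases the finished messenger RNA from the spliceosome, was the bright member that did not pass. It stood between 0.32 and 0.55 with a median of 0.48, an SD of 0.07 over wolves against 0.09 between arrays (adjusted p = 0.647, limma's F test). With 3 wolves at or below the bound DHX8 lay close to background, where HPX itself ran from 0.20 to 0.63 over the wolves. With quantile normalization, where all arrays are forced to a common distribution, it passed (adjusted p = 0.00408), with wolf 11136 highest at 0.89; the signal range was narrowest in that wolf. DDX23, DDX42, DDX46, DHX35 and DHX38 lay below the bound and did not pass.

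Of the 15 helicases of ribosome assembly 2 differed, 1 above the bound, where 78.1% of all probes did, and 1 below it, where 5.02% did. DDX31, a protein of the nucleolus, was lowest in wolf 11136 at 1.04 and next in wolf 11310 at 1.31, had a median of 1.78, and was highest in wolf 11275 at 2.25. Wolves 10537 and 11273 had 2.14 each. Of all bright probes that differed, 40.1% were lowest in wolf 11136 and 19.7% in wolf 11310. After quantile normalization wolf 11310 was lowest and wolf 10406 highest, at 1.35 and 2.27. The SD over wolves was 0.38 against 0.19 between arrays, the range 2.32-fold, and the adjusted p 4.68e-11 in limma's F test. Without the slide term that adjusted p was 0.000514, and slide moved this probe over a span of 1.11. The array holds 3 probes of DDX31, and they disagreed: the one used had a mean level of 1.78 over the 14 animals, while the others, made for single transcript forms, stood at -0.17 and -0.29 and did not pass (adjusted p = 0.697 and 0.763). DDX39B is the other member with more than 1 probe, at -0.17 and -0.29.

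DDX47, which acts in ribosomal RNA processing, was the member below the bound that differed. It ran from 0.02 in wolf 11148 through a median of 0.30 to 0.60 in wolf 11206 (SD 0.16 against 0.13, adjusted p = 0.000265 in limma's F test), and 4 wolves exceeded the bound. Without the third array of every animal the adjusted p was 0.0555.

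**Figure D2:**
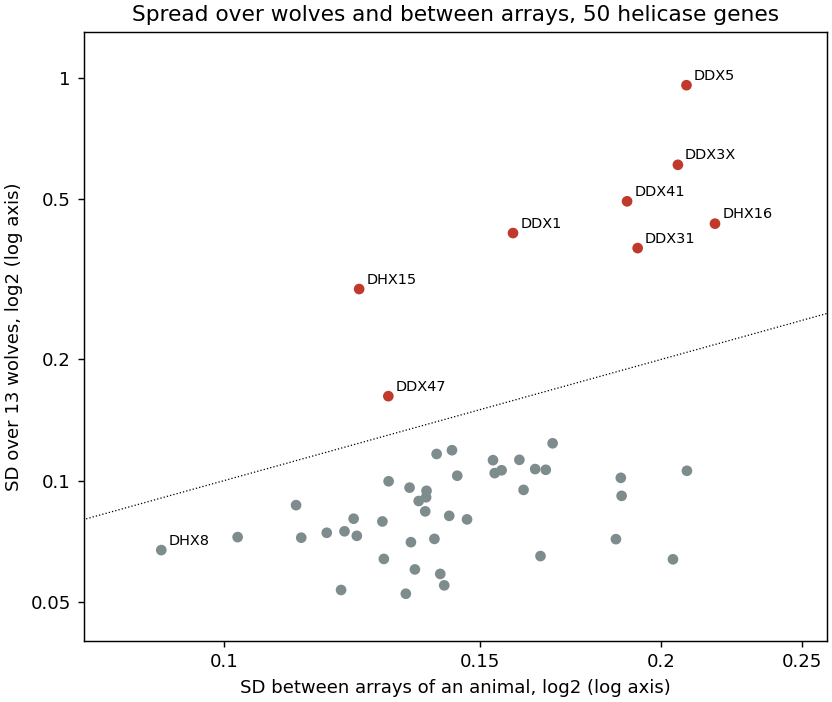
SD over the 13 wolves against SD between arrays of an animal, for the 50 helicase genes. Both are in log2 units on log axes, with slide differences taken out. The dotted line marks equal SDs, and red points are the 8 genes that differed. The 8 lie above the line, DDX5 at 0.96 over wolves and 0.21 between arrays, and DHX8 lies below it at 0.07 and 0.09.

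The helicases that differed were then followed across the wolves. DDX5, DDX3X, DDX41, DHX16, DDX1 and DHX15 were high and low in the same animals, a group of 6 put together after the values were seen. Wolves 11206 and 11270 were among the 3 highest for 6 of these 6 genes, wolf 111080 for 4 and wolf 11310 for 2. Wolf 11273 was among the 3 lowest for all 6, wolf 11148 for 4 and wolf 10632 for 3. DDX31 did not follow this order. It ranked 3rd of 13 in wolf 11273, 8th in wolf 11206 and 11th in wolf 11270.

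**Figure D3:**
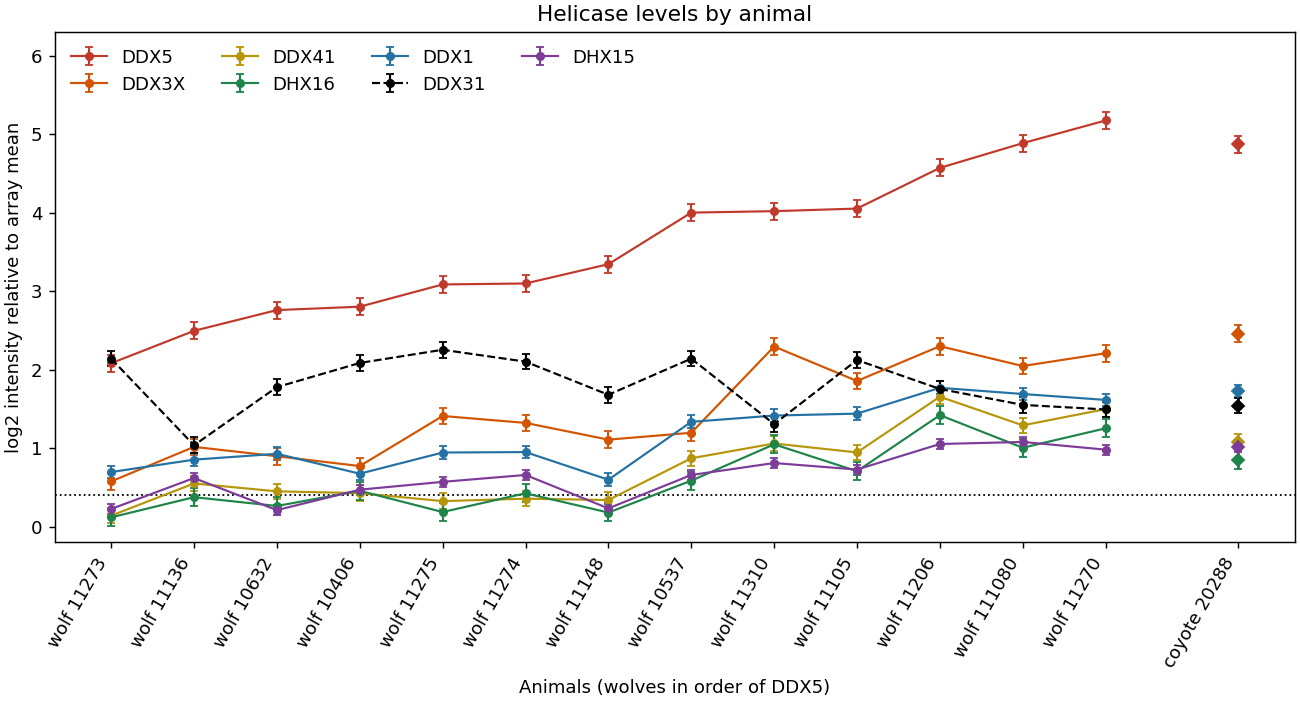
Level of the 7 bright helicases that differed among wolves, as log2 intensity minus the array mean, with wolves ordered by DDX5 and the coyote at the right. Error bars are a standard error of an animal's level from the SD between arrays pooled over the wolves. They are the same for every animal of a gene, the coyote included. The dotted line is the background bound of 0.396. DDX3X, DDX41, DHX16, DDX1 and DHX15 are higher in the 6 wolves at the upper end of the DDX5 order than in most of the other 7, and the dashed line of DDX31 is not.

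DDX5 was correlated over the 13 wolves with each of the other 6 bright members that differed and with 5 covariates, 11 relations with p-values adjusted over them (100000 permutations, two-sided). With DDX41 Pearson's r was 0.914 (permutation p = 5e-05, adjusted p = 0.000247) and Spearman's rho 0.802 (permutation p = 0.00144, adjusted p = 0.00317). With DDX1 r was 0.901 (permutation p = 8e-05, adjusted p = 0.000247), with a rho of 0.830 (permutation p = 0.00071, adjusted p = 0.00217). With DDX3X r was 0.886 (permutation p = 6e-05, adjusted p = 0.000247), with a rho of 0.868 (permutation p = 0.0002, adjusted p = 0.00198). Over all 13 wolves DDX5 was high where these 3 helicases were high.

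With DHX16 r was 0.873 (permutation p = 9e-05, adjusted p = 0.000247), with a rho of 0.830 (permutation p = 0.00079, adjusted p = 0.00217). With DHX15 r was 0.842 (permutation p = 0.00048, adjusted p = 0.00106), with a rho of 0.863 (permutation p = 0.00036, adjusted p = 0.00198). With wolves 11270 and 111080 removed, whose DDX5 lay farthest from the median, these 5 values of r were between 0.761 and 0.874. Within single slides, which held 7 or 8 wolf arrays, they lay between 0.525 and 0.965 and were positive on 7 of 7 slides for each gene. The slides hold repeated arrays of the same wolves, so values within slides, here and below, bear on slide only and are not independent. With DDX31 r was -0.231 (permutation p = 0.441, adjusted p = 0.485), with a rho of -0.275 (permutation p = 0.360, adjusted p = 0.397). Within slides it ran from -0.867 to 0.442.

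The wolves were not spread evenly. The widest gap in DDX5 lay between 3.34 and 4.00, with 7 wolves below it and 6 above. DDX41, DHX16 and DDX1 were higher in each of the 6 than in any of the 7, while DDX3X and DHX15 overlapped. Among the 7 lower wolves r with DDX5 was 0.764 for DDX3X but between 0.0767 and 0.226 for the other 4 genes. Among the 6 higher wolves it was 0.470 for DDX3X, 0.648 for DHX16, 0.766 for DDX1, 0.780 for DDX41 and above these for DHX15. The split was made on DDX5 itself after the values were seen, which narrows its range and can lower r, so these values describe the wolves and carry no test.

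All 15 pairs of the 6 genes had a positive r, between 0.842 and 0.974 with a median of 0.894, and of the 21 pairs of the 7 genes these 15 passed (permutation test, adjusted over 21 pairs). The closest pair was DDX41 and DHX16, at r = 0.974 (permutation p = 1e-05, the smallest these permutations can give, adjusted p = 0.00014), with a rho of 0.945 (permutation p = 3e-05, adjusted p = 0.00063). Leaving out wolves 11206 and 11270 gave 0.942, and single slides gave 0.859 to 0.967. After quantile normalization the 15 pairs lay between 0.594 and 0.962, and after each array was scaled to the same spread between 0.800 and 0.968. The 6 pairs with DDX31 lay between -0.383 and -0.228. They depended on the scaling, at -0.915 to -0.713 after quantile normalization and -0.529 to -0.373 with equal spread.

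This shared order was common among bright probes. Of 1606 other probes that lay above the bound and differed among wolves, 18.1% had an r with DDX5 of at least 0.842, the lowest of the 5 genes, and their median r was 0.329. After quantile normalization 27.3% reached the lowest of the 5 genes there (0.594) and the median turned to -0.0755. With equal spread 19.1% reached it (0.800) and the median was 0.111. The animals' signal range also moved with DDX5, at r = 0.643 (permutation p = 0.0172, adjusted p = 0.0316), with a rho of 0.643 (permutation p = 0.0206, adjusted p = 0.0377). Leaving out wolves 11270 and 111080 gave an r of 0.643. It ran from 0.258 to 0.821 within slides. This call was lost with the plain mean of the 4 arrays (r = 0.484). It was also lost without wolf 10537, 10632, 111080, 11136 or 11206, at an r of 0.635, 0.611, 0.597, 0.587 and 0.592. After quantile normalization r was 0.410 and with equal spread 0.455, neither passing, but signal range was measured again on the scaled values. Quantile normalization gives all arrays a common distribution, so its loss of the call was fixed in advance and says nothing of the relation. Equal spread also changes the range being measured. The part of signal range in the shared order was not tested. The lowest r of the 15 pairs was 0.842 as deposited, 0.594 after quantile normalization and 0.800 with equal spread.

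The member that ran apart, DDX31, was set against red cell genes. It was read from its bright probe, which its other probes did not match. DDX31 went with the red cell score, the mean deviation of 15 measured red cell genes, at r = 0.900 (permutation p = 5e-05, adjusted over 30 relations 0.0015) and rho = 0.857 (permutation p = 0.00028, adjusted p = 0.0084). Leaving out wolves 11136 and 11275 gave 0.911, and within slides it lay between 0.727 and 0.937. It was 0.899 after quantile normalization, and without each wolf in turn it lay between 0.883 and 0.924. This relation was looked at after the values were seen. The widest gap in DDX31 lay between 1.78 and 2.08, and the red cell score was higher in each of the 6 wolves above it than in any of the 7 below. Among the 7 r was 0.757 and among the 6 it was 0.0352, with the range of DDX31 narrowed by the split.

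Of the 7 red cell genes above the bound all 7 had a positive r with DDX31, between 0.690 for BNIP3L, a factor in the removal of mitochondria as red cells mature, and 0.850 for the alpha-globin gene HBA2. The globin gene HBD had 0.811, the alpha-globin chaperone AHSP 0.809 and GATA1, the regulator of red cell formation, 0.793. Of 1606 bright probes that differed among wolves, 60.5% had a positive r with DDX31, with a median of 0.427. The other 8 genes of the score lay at or below the bound, with values from -0.339 for BPGM through -0.0757 for ALAS2 to 0.661 for HEMGN. Of 1601 other bright probes that differed among wolves, 2.75% had an r with the red cell score at or above that of DDX31, with a median of 0.305. In whole blood fewer cells of a type and less RNA per cell cannot be told apart.

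**Figure D4:**
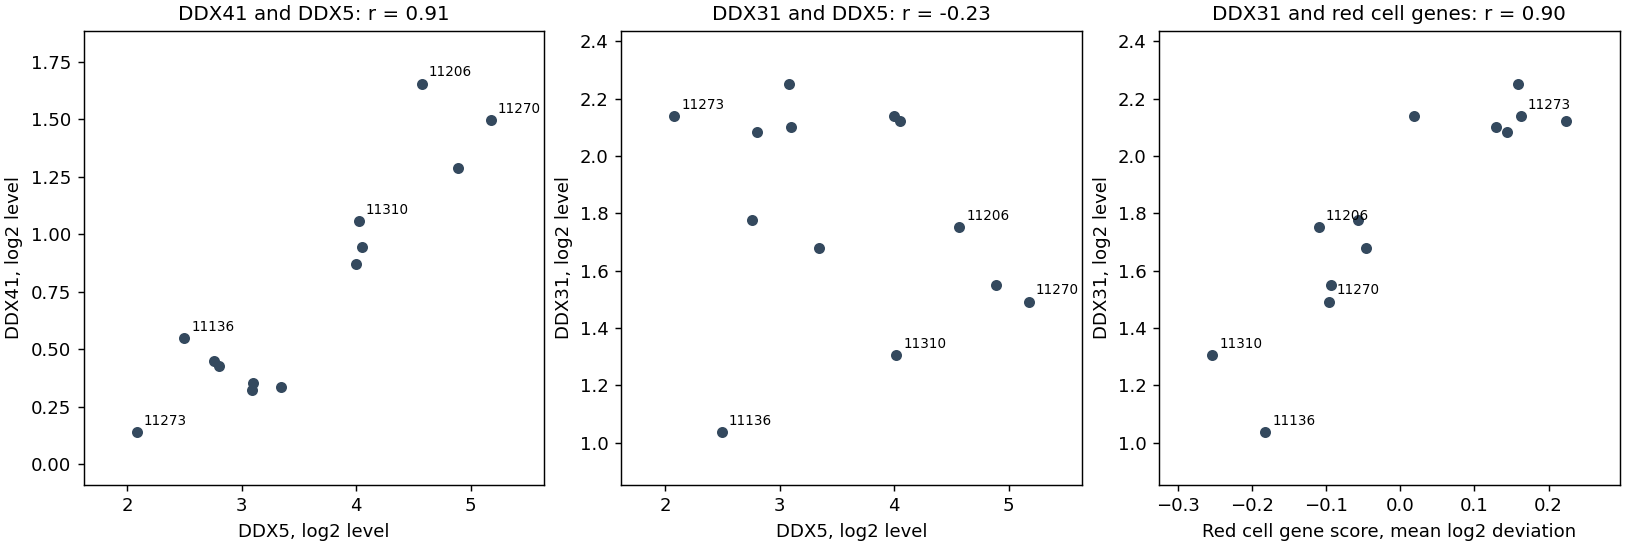
Levels of helicases in the 13 wolves on the log2 scale, 1 point per wolf, with some wolves labelled by number. Left, DDX41 against DDX5 (r = 0.91); middle, DDX31 against DDX5 (r = -0.23); right, DDX31 against the red cell score, the mean log2 deviation of 15 red cell genes from the wolves' mean (r = 0.90). In the left panel the 7 wolves below a DDX5 level of 3.34 or at it lie apart from the 6 at 4.00 or above.

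The red cell score had an r of -0.358 with DDX5 (permutation p = 0.224, adjusted p = 0.274) and between -0.498 and -0.361 with the other 5 genes that moved with it, none of which passed. After quantile normalization the values for the 6 genes lay between -0.838 and -0.638, and that with DDX5, -0.697, passed. So did DDX5 with DDX31, at -0.713. Scores of neutrophil genes and T cell genes had an r with DDX5 of -0.159 and -0.414 (permutation adjusted p = 0.603 and 0.221). Of the measured genes only 1 of 19 neutrophil genes and 2 of 15 T cell genes lay above the bound, so these scores are mostly of dim probes and their not passing says little about those cells. With the 6 other members neither score passed either, at permutation adjusted p values of 0.155 or more.

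Slide moved some of the same genes. With animal kept in the model, 9 of 50 members differed between slides (18%), where 20.3% of all probes did (limma's F test, adjusted p under 0.05). Among the bright members 4 of 8 did, where 84% of probes above the bound did. DDX31 deviated from -0.54 on slide 32013 to 0.57 on slide 32024 (adjusted p = 5.29e-13), and DDX3X from -0.41 on slide 32010 to 0.56 on slide 32020 (adjusted p = 1.2e-12). DHX16 and DHX8 also differed, with spans of 0.52 and 0.34. DDX5, DDX1, DDX41 and DHX15 did not pass, at adjusted p values of 0.0688, 0.297, 0.756 and 0.0527. Slide was a term of every test of wolves, and the levels and SDs between arrays above are slide-adjusted.

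The second question set the coyote against the 13 wolves, with its spread assumed equal to theirs. No helicase gene passed (0 of 50), and of all probes 0.00411% did, a single probe (limma, adjusted p under 0.05). At an unadjusted p under 0.05 there were 2 members, DDX46 and DDX39B, 4% of the 50 where 3.74% of all probes reached it, and both lay below the bound in the coyote as well. The nearest bright gene was DDX3X. It stood at 2.46 in the coyote, above the highest wolf at 2.30 (difference from the wolves' mean 1.00, SE 0.50, limma adjusted p = 0.998).

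DDX5 stood at 4.87 in the coyote, below wolves 111080 and 11270 (difference 1.31, SE 0.87, limma adjusted p = 0.998). DDX1, at 1.73, lay just under the highest wolf (difference 0.58, SE 0.36). These places depend on the scaling. The coyote was above all wolves for DDX1 without the slide term, after quantile normalization and with equal spread, for DHX15 under the last pair of these, and for DDX5 with equal spread. DDX41, DHX15 and DHX16 stood at 1.08, 1.01 and 0.85 and DDX31 at 1.54, each within the range of the wolves apart from DHX15 as just given. DHX8, at 0.46, equalled the wolves' mean. The coyote lay outside the range of the wolves for 3 of 50 members (6%), DDX3X, DDX46 and DDX39B, each time above it, where 12.2% of all probes lay outside. With 1 coyote its own spread was not measured.

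Of 20 measured helicases outside the DDX and DHX names, 6 differed among the wolves and 5 lay above the bound. Of these 5, 4 differed, near the 78.1% of all bright probes. SNRNP200, which unwinds RNA pairs to activate the spliceosome, had an SD of 0.84, from 1.21 in wolf 11136 through a median of 3.79 to 4.27 in wolf 11275. Wolf 11136 was lowest for 40.1% of all bright probes that differed. EIF4A2, which opens messenger RNAs for translation, had an SD of 0.76, from 2.36 in wolf 11273 to 4.23 in wolf 11206. HELZ (SD 0.23, below the bound) and ZNFX1 (0.23), a sensor of viral RNA, also differed. The other initiation helicase EIF4A1 stood at a mean level of -0.26, and the antiviral helicases RIGI, whose earlier symbol was DDX58, and IFIH1 at 0.11 and -0.06, all below the bound and not passing. The score of these 20 genes had an r of 0.587 with DDX5 (permutation adjusted p = 0.0525) that turned to -0.213 after quantile normalization.

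Partners of the helicases were read from lists of known factors. Of 14 measured messenger RNA export genes 4 differed: SARNP (SD 0.48), a partner of DDX39B, ZC3H11A (0.43), CHTOP (0.37) and RAE1 (0.17). Above the bound 3 of 4 differed, near the share of all bright probes (78.1%). SARNP was lowest in wolf 11273 at 0.52, and all but RAE1, which was below the bound, were highest in wolf 11206, at 1.91, 1.65 and 1.27. Wolf 11206 was highest for 22% of all bright probes that differed, and wolf 11273 lowest for 19.9%. Of 10 genes of the exon junction and nonsense-mediated decay 1 differed, UPF2 (SD 0.32), which ran from 0.28 in wolf 11273 to 1.32 in wolf 11206. Of 6 genes of microRNA processing 1 differed, HNRNPA1 (SD 0.59), from 2.82 in wolf 11273 to 4.47 in wolf 11310. UPF2 and HNRNPA1 were each the only gene of their list above the bound, where 78.1% of all probes differed.

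Of 14 measured interferon-linked genes 3 differed, OAS2 (SD 0.85), OAS1 (0.37) and OASL (0.12). These were also the 3 above the bound, where 78.1% of all probes differed. OAS2, an antiviral enzyme, ran from 0.08 in wolf 11273 to 2.99 in wolf 11206. OAS1 ran from 1.66 in wolf 11136 to 2.94 in wolf 11105, and OASL from 0.26 in wolf 11136 to 0.69 in wolf 11270, so the 3 genes did not share their highest wolf. Wolf 11136 was lowest for 40.1% of all bright probes that differed. The interferon-induced helicases DHX58 and DDX60 gave no signal above the bound, at highest levels of 0.03 and -0.09 among the wolves.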

How the data were processed

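The submitters' processing notes name BeadStudio 1.5.0.34. The authors deposited log2 intensities. Per the series' design text these were centred on the median in SAS, but in the values themselves it is the array means that are 0, to within 3.24e-09, while array medians run from -0.167 to -0.0325. No source used here states a background subtraction. Of 24354 probes, all with a value on every array, the annotation names 1 gene for 18339 and none for 6015. Animal and slide came from the labels.

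Computed here with limma 3.58.1 in R 4.3.3 (lmFit, eBayes with intensity trend, Benjamini-Hochberg over all probes, threshold 0.05): an F test of animal over the wolves' arrays, with slide; an F test of slide over 56 arrays; and the coyote against 13 wolves on 1 slide-adjusted value per animal. Between-wolf shares of variance were estimated from the animal and residual mean squares. Correlations used 100000 permutations. The tests were also tried on simulated data. Every member above the bound, every member passing a test and the 4 genes of largest SD that differed in each helicase list were named, and the 6 with the largest SD in full. Other members were added after their values were seen. Members and lists were chosen with earlier results of these data known. No sequence or coordinates were used here.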

Additional observations from a re-analysis of the deposited data

Results flagged for a closer look

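For the 6 helicases given in full, the 4 arrays of each animal were examined as deposited, 84 sets in all. In 3 of them 1 array stood apart from the other 3 by Dixon's criterion, where chance flags about 1 in 20. DDX5 in wolf 11136 read 2.55 on slide 32013 and between 2.39 and 2.41 on the others. DDX41 in wolf 11275 read 0.521 on slide 32024 against 0.256 to 0.291. DDX1 in wolf 10537 read 1.48 on slide 32021 against 1.22 to 1.24. The cause was not tested.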

How the results depend on the processing

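The count of 8 members that differed among wolves lay between 7 and 10 under the 24 alternatives: no slide term, quantile normalization, 75th-percentile centring, scaling to equal spread, dim probes left out, the mean of a gene's probes, no intensity trend, and leaving out an array of every animal or 1 wolf at a time. DDX5, DDX3X, DDX41, DHX16, DDX1, DDX31 and DHX15 passed under all 24. The 7 came with dim probes left out, where DDX47 was not tested, and without the third array of every animal. In the coyote comparison 0 members passed under each alternative. The count above the bound was 8 under each of its 3 alternatives. Members that differed between slides numbered between 4 and 8 without 1 array of every animal, 4 without the third, and the cause was not tested. The r of DDX5 with the other RNA helicases turned to -0.213 after quantile normalization; its cause was not tested. The r of DDX5 with neutrophil genes lay between -0.289 and 0.0976 without 1 wolf at a time, and turned positive without wolf 11273. Relations of DDX5 past the threshold numbered between 5 and 7 of 11 in each setting. The correlations on each side of a gap and the all-pairs, red cell and equal-spread settings of the correlations were added after seeing the data. After quantile normalization wolf 11270 was highest for DDX41 and DHX16 and wolf 111080 for DDX1, and without the slide term wolf 10406 was lowest for DDX1. Below the bound 1 of 42 members passed, DDX47.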
